A study of Homo sapiens with 6 samples.

Results

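THE1 elements are retroviral repeats of the primate genome, and their RNA on chromatin was followed here by repeat name in H9 human embryonic stem cells. Entries were chosen by name from a list of 8, which was set with earlier results of these data known. The list covers the long terminal repeats (LTRs) THE1A, THE1B, THE1C and THE1D and an internal region for each. The count table analysed here has rows for 5 of these 8 names, the 4 LTRs and THE1D-int, out of 15641 entries. The internal names THE1A-int, THE1B-int and THE1C-int are not analysed here. A row named THE1-int lies outside the list. It was added after its values had been seen, and is always named apart from the 5.

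The naive and the primed state were compared, with 3 libraries each. Naive cells carry the treatment label naïve and were kept in RSeT, a commercial medium for a naive-like state. Primed cells carry the treatment label primed, although their growth text also names RSeT, so the medium of the primed cells is not known from the labels. Both states are the 1 cell line H9, an established line with no genetic change in the labels, and all libraries hold RNA from the chromatin fraction. The labels do not name separate cultures, so the p-values speak of library-to-library spread alone, which may be technical. The rows are repeats, so marker genes of pluripotent cells were not analysed here. The 6 libraries come from bulk cells, in which fewer cells with a transcript and less of it per cell cannot be told apart.

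THE1 stands for transposon-like human element. It is the youngest branch of the mammalian apparent LTR retrotransposons (MaLR), a large group related to the endogenous retrovirus ERVL, in which MST and the still older MLT1 are its relatives. A complete copy has an LTR at each end, which carries promoter and polyadenylation signals, around an internal region that lacks a working set of retroviral genes. Most copies in the genome are solitary LTRs, left when the ends recombined and the internal region was lost. THE1D is the oldest and THE1A the youngest of the 4 LTR groups. An LTR of THE1B is known to act as a promoter of the growth factor receptor gene CSF1R in Hodgkin lymphoma cells.

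Total counts were between 9748202 and 17791046 in naive libraries. In primed libraries they were 7192242 and 8106871 in libraries 1 and 3, but only 118793 in library 2. THE1 reads were ample except in that library. The 5 entries together held 354556 counts in naive libraries and 140661 in primed libraries, and primed library 2 gave 1250 of these. A value is a sum over every genomic copy with that name and belongs to no single position. The sources do not state how reads mapping to several places were counted, so reads may be shared between the near-identical THE1 entries. Levels of different entries are not compared, because the summed length of the copies behind each is not part of the table.

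In the chromatin fraction of naive cells the 4 THE1 LTRs were each measured at 1.27 to 1.39 times their level in primed cells with the main scaling, and below it with library size alone. None of the 5 THE1 entries passed the test over all entries. The internal entry THE1D-int differed by 0.05 on the log2 scale, within its error. Levels below are depth-scaled counts (CPM) after adjustment by trimmed mean of M-values (TMM), and changes are log2 naive minus primed from edgeR's quasi-likelihood test, with Benjamini-Hochberg adjustment over 3219 tested entries and a threshold of 0.05.

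THE1B is the LTR with the most counts. It had 4353, 5703 and 5903 TMM CPM in naive libraries 1 to 3, against 3618, 3541 and 4297 in primed libraries 1 to 3. Every naive library was above every primed one, although naive library 1 was close to primed library 3. The means were 5319.7 ± 843 TMM CPM in naive cells and 3819 ± 416 in primed cells (SD, n = 3 each), a log2 change of 0.48 ± 0.14 (SE; edgeR adjusted p = 0.0518).

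THE1C had 1291, 1605 and 1591 TMM CPM in naive libraries 1 to 3, against 988, 1052 and 1223 in primed libraries 1 to 3. Its log2 change was 0.46 ± 0.14 (SE; edgeR adjusted p = 0.0505). Again the groups did not overlap, and naive library 1 was the lowest of the naive libraries and primed library 3 the highest of the primed ones.

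THE1D, the oldest of the 4 LTR groups, had 2050.2, 2529 and 2375 TMM CPM in naive libraries 1 to 3, against 1548, 1605 and 1981 in primed libraries 1 to 3. Its log2 change was 0.44 ± 0.14 (SE; edgeR adjusted p = 0.0583). The gap between the lowest naive and the highest primed library was small beside the spread within either group.

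THE1A, the youngest group, had 880.6, 1137 and 1064 TMM CPM in naive libraries 1 to 3, against 772, 766 and 880.5 in primed libraries 1 to 3. Its log2 change was the smallest of the 4, at 0.35 ± 0.14 (SE; edgeR adjusted p = 0.110). Naive library 1 and primed library 3 were level, so that its groups all but touched.

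THE1D-int, the internal region assigned to the THE1D group, had few counts. It had 198, 323 and 424 counts in naive libraries 1 to 3, against 217, 5 and 288 in primed libraries 1 to 3. Scaled, these were 22.5, 28.9 and 29.8 TMM CPM in naive libraries and 27.5, 27.97 and 28.7 in primed libraries. The groups overlapped, with primed libraries lying inside the naive range, and the log2 change was -0.05 ± 0.19 (SE; edgeR adjusted p = 0.886). The 5 counts in primed library 2 have an exact 95% Poisson interval of 1.62 to 11.7, which covers counting error only.

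**Figure D1:**
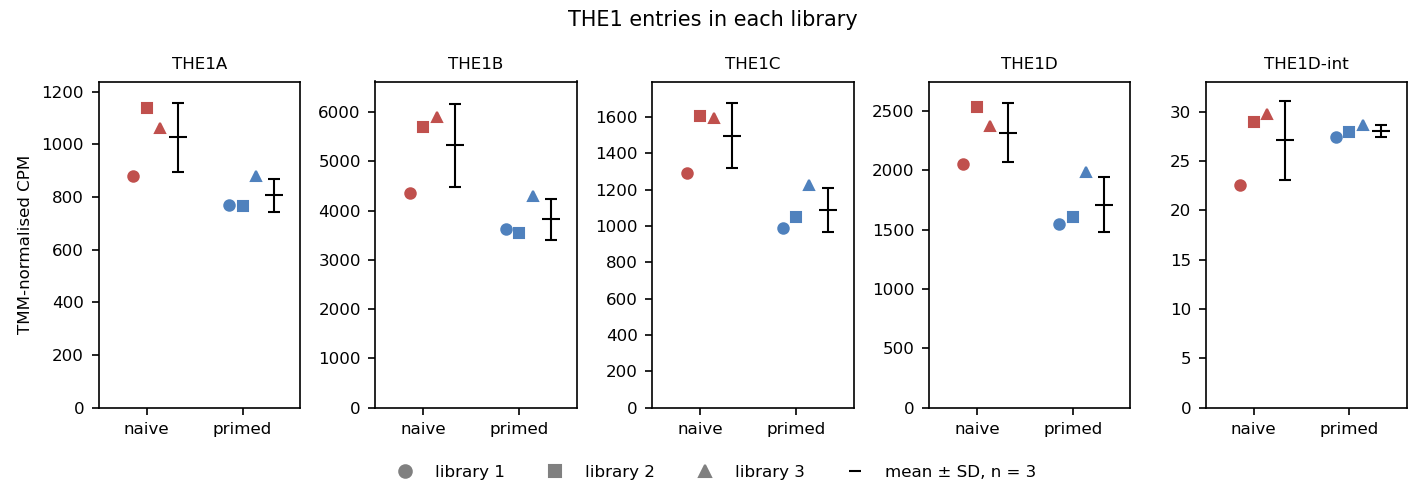
TMM-normalised CPM (y axes, each from 0) of the 5 THE1 entries in naive and primed libraries, 1 panel per entry. Symbols stand for libraries 1 to 3 and bars for mean ± SD (n = 3). With this scaling all naive libraries lie above all primed ones for THE1A to THE1D, whose log2 changes are below 0 with library size alone, and the groups overlap for THE1D-int.

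By edgeR, 0 of 5 THE1 entries were called. DESeq2 likewise called 0, against 8.59% of all entries it tested. Of all entries tested by edgeR, 12.7% were called in either direction. Of the named repeats tested, 10.4% were called higher in naive cells and 11.5% in either direction. At an unadjusted edgeR p under 0.05, 4 of the 5 entries were higher in naive cells, against 28.1% of named repeats. Groups that did not overlap, with naive above, were found for 4 of the 5, against 36% of named repeats. Adjusted p-values of THE1B, THE1C and THE1D lay close to the threshold and moved across it with single libraries and with the filter. With no filter on low counts these 3 were called higher (edgeR adjusted p = 0.00599, 0.0338 and 0.0345). Without naive library 1 all 4 LTRs were called higher, with log2 changes of 0.47 for THE1A, 0.63 for THE1B, 0.58 for THE1C and 0.55 for THE1D (edgeR adjusted p = 0.0480, 0.0140, 0.0205 and 0.0292). Without primed library 3, THE1B, THE1C and THE1D were called (0.55, 0.53 and 0.53; edgeR adjusted p = 0.0465, 0.0478 and 0.0387). Over the whole table, 8.45% of entries were called in either direction with no filter, 18.6% without naive library 1 and 12.5% without primed library 3.

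The direction of the LTR values depended on the scaling. Alpha satellite, the repeat of human centromeres, was 25.3%, 42.9% and 34.5% of all reads counted in naive libraries 1 to 3, against 0.221%, 0.625% and 0.305% in primed libraries 1 to 3. Scaling by library size alone shifted the median of all tested entries to -0.61, against -0.0046 with TMM factors. In that fit the log2 changes of THE1A, THE1B, THE1C and THE1D were -0.35, -0.22, -0.24 and -0.27, and that of THE1D-int was -0.66. Measured from the median of named repeats under the same scaling, the order was kept. THE1B stood 0.27 above that median with TMM factors, 0.26 with RLE factors, 0.23 with upper-quartile factors and 0.20 with library size alone. THE1A stood between 0.07 and 0.14 above it in these 4 scalings, and THE1D-int between 0.24 and 0.26 below it.

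As a share of all counts the 5 entries took 0.775%, 0.690% and 0.935% in naive libraries 1 to 3, against 0.764%, 1.05% and 1.04% in primed libraries 1 to 3. The groups overlapped (difference -0.152 percentage points, exact two-sided permutation p = 0.3). It was -0.247 points without primed library 1 and -0.0974 without naive library 2. With alpha satellite and ribosomal RNA left out of the total, the shares were 1.13%, 1.34% and 1.43% in naive libraries, against 0.931%, 1.10% and 1.14% in primed libraries. Naive libraries 2 and 3 were then above all primed ones and naive library 1 was not (difference 0.243 points, exact permutation p = 0.2). The 95% Wilson interval of the share of all counts in primed library 2 was 0.996% to 1.11%. With 3 libraries against 3, the smallest p this test can give is 0.1.

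Within a library the ratio of internal to LTR counts needs no scaling. THE1 internal counts per LTR count were lower in every naive library than in any primed one. THE1D-int had 1.10, 1.14 and 1.25 counts per 100 counts of THE1D in naive libraries 1 to 3, against 1.77, 1.74 and 1.45 in primed libraries 1 to 3. The highest naive library was below the lowest primed one. The means were 1.17 ± 0.0794 in naive cells and 1.65 ± 0.180 in primed cells (SD, n = 3 each), a difference of -0.50 in the log2 ratio (exact two-sided permutation p = 0.1, the smallest the design allows). As a percent of THE1D-int and THE1D counts together, the 95% Wilson interval was 0.734% to 3.945% in primed library 2. That interval rests on 5 THE1D-int counts and covers all naive values (1.09%, 1.13% and 1.24%). Intervals of naive library 3 (1.126% to 1.36%) and primed library 3 (1.272% to 1.6%) also overlapped.

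Set against all 4 LTRs, THE1D-int had 0.263, 0.264 and 0.272 counts per 100 LTR counts in naive libraries 1 to 3, against 0.396, 0.402 and 0.342 in primed libraries 1 to 3. Naive libraries lay within a narrow band and all below the primed ones (log2 difference -0.51, exact permutation p = 0.1). Leaving out each library in turn gave differences between -0.58 and -0.47, so the value did not rest on the shallow primed library 2.

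The row THE1-int, whose name carries no group letter, also had the lower ratio in naive cells. It held 319, 550 and 670 counts in naive libraries 1 to 3, against 308, 11 and 489 in primed libraries 1 to 3. Per 100 counts of THE1A to THE1D these were 0.423, 0.449 and 0.430 in naive libraries, against 0.563, 0.884 and 0.581 in primed libraries. All naive values were below all primed ones (log2 difference -0.61, exact permutation p = 0.1). Without primed library 2 the difference was -0.40. The high value of primed library 2 rests on 11 counts, and its 95% Wilson interval, as a percent of THE1-int and LTR counts together, was 0.490% to 1.56%. The level of THE1-int differed by -0.05 ± 0.19 (log2, SE), with an edgeR adjusted p of 0.905.

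**Figure D2:**
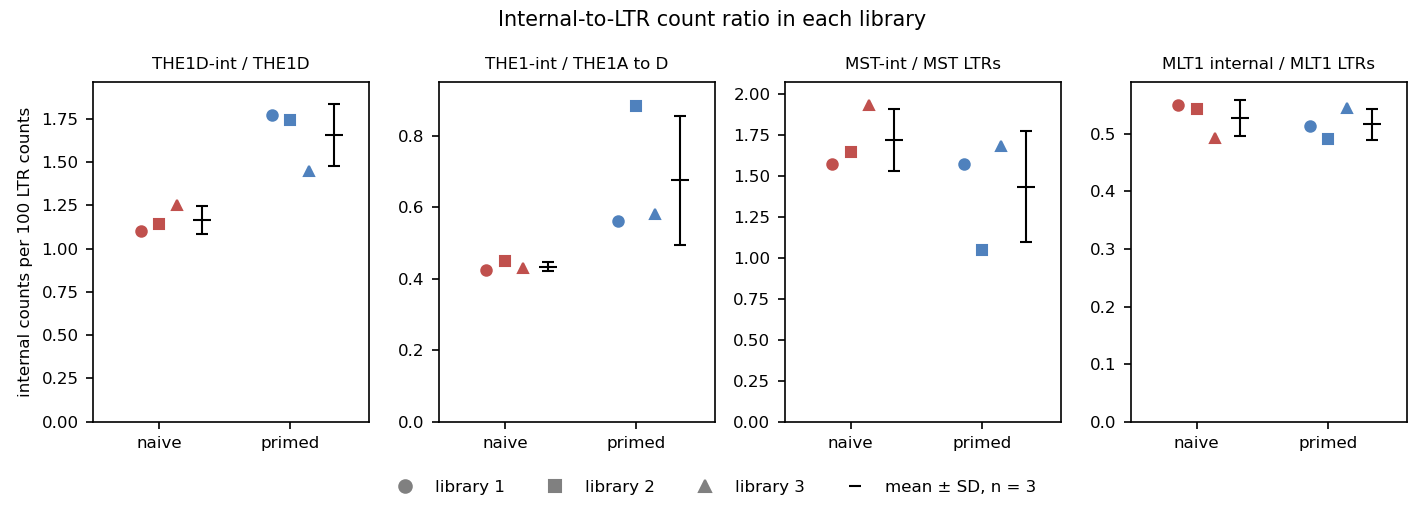
Internal counts per 100 LTR counts (y axes, each from 0) in naive and primed libraries for THE1D-int over THE1D, THE1-int over the 4 THE1 LTRs, MST-int over the MST LTRs and the MLT1 internal entries over the MLT1 LTRs. Symbols stand for libraries 1 to 3 and bars for mean ± SD (n = 3). Both THE1 ratios are lower in every naive library, while the groups overlap for MST and MLT1.

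The same ratio was set beside other retroviral families. MST-int, the internal region of the next older MaLR group, had 1.58, 1.65 and 1.94 counts per 100 MST LTR counts in naive libraries 1 to 3, against 1.57, 1.05 and 1.68 in primed libraries 1 to 3. Its groups overlapped, and its log2 ratio was 0.29 higher in naive cells (exact permutation p = 0.4), and 0.075 higher without primed library 2, which holds 10 MST-int counts. The difference between the THE1D and the MST log2 ratio was -0.79 between naive and primed cells, with no overlap of the groups (exact permutation p = 0.1), and -0.54 without primed library 2. Summed MLT1 internal entries had 0.528 ± 0.0312 counts per 100 MLT1 LTR counts in naive cells and 0.516 ± 0.0269 in primed cells (SD, n = 3 each; exact permutation p = 0.7).

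Over the table, 27 families had both an LTR entry and an internal entry of the same name among those tested. A limma fit to the log2 ratio of all 27 gave THE1D a change of -0.55 ± 0.19 (SE), which did not pass (adjusted p = 0.140 over the 27 pairs). It was the fifth from the lowest, against a median of -0.11 over the pairs. Of these pairs 3.7% were called lower in naive cells and 3.7% higher. Ratios of every naive library were below every primed one for THE1D and for 11.1% of all pairs. The pair called lower was LTR43-int with LTR43, a further retroviral family, at -1.51 ± 0.30 (SE; limma adjusted p = 0.0191), and the pair called higher was MER50-int with MER50, at 0.90 ± 0.17 (limma adjusted p = 0.0191). Those 2 calls were not stable to single libraries: 0 pairs were called without any 1 of the 3 naive libraries or without primed library 3, 1 without primed library 1 and 6 without primed library 2. The THE1D pair was not called in any of these fits.

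**Figure D3:**
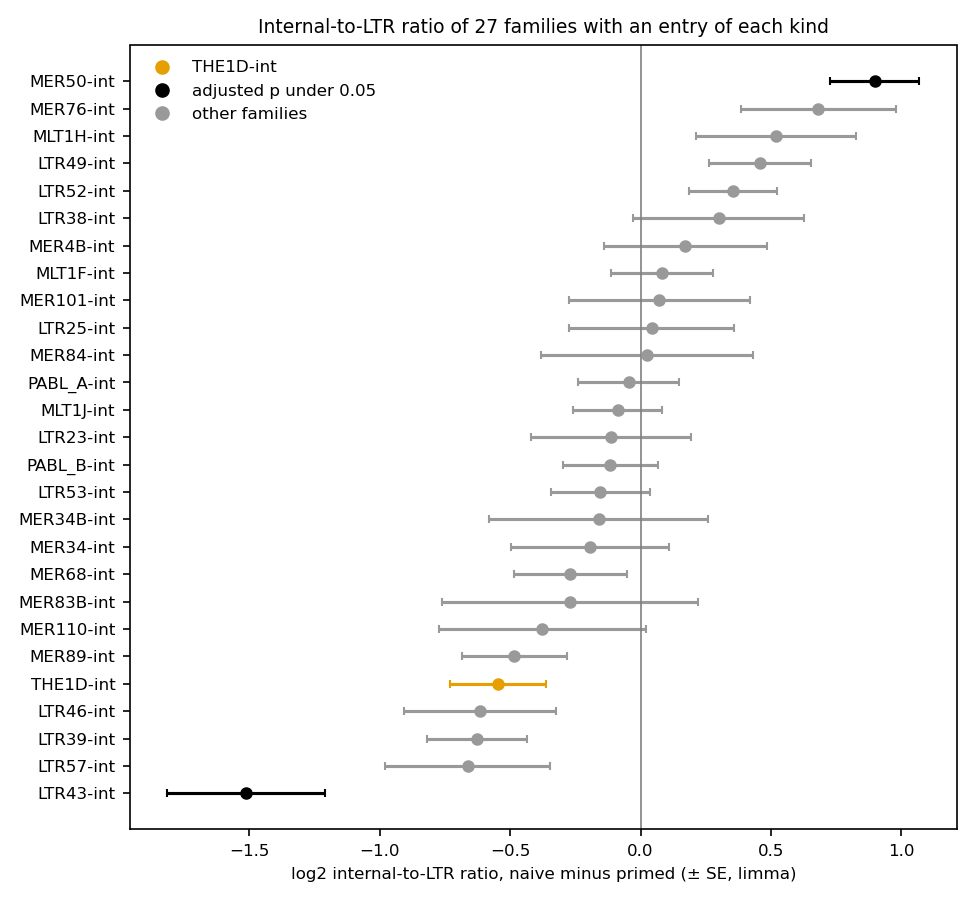
Change of the log2 internal-to-LTR ratio, naive minus primed (x axis, ± SE from limma), for 27 families with an entry of each kind (y axis, ordered by change). THE1D-int, in orange, lies at -0.55, the fifth from the lowest, and the black points LTR43-int and MER50-int are the pairs with an adjusted p under 0.05.

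The mean shares of the 4 LTRs among their summed counts differed between the states by at most 0.794 percentage points, and by up to 1.53 when a single library, naive library 1, was left out. THE1B made up 50.8%, 51.97% and 53.99% of the LTR counts in naive libraries 1 to 3, against 52.2%, 50.8% and 51.3% in primed libraries 1 to 3. Its groups overlapped (exact permutation p = 0.7). THE1C made up 14.7% ± 0.270 in naive cells and 14.7% ± 0.420 in primed cells, and THE1D 22.9% ± 1.10 and 23.01% ± 0.645 (SD, n = 3 each; exact permutation p = 0.9 for either).

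THE1A was the exception in that its groups did not overlap. It made up 10.3%, 10.4% and 9.73% of the LTR counts in naive libraries 1 to 3, against 11.1%, 11.0% and 10.5% in primed libraries 1 to 3. The difference was -0.765 percentage points (exact permutation p = 0.1, the smallest the design allows, among 4 LTR shares compared). For primed library 2 the 95% Wilson interval of this share was 9.38% to 12.9%, which covers all 3 naive values. The log2 ratio of THE1A to THE1B differed by -0.13 between naive and primed cells and that of THE1A to THE1C by -0.11, both without overlap. The exact permutation p was 0.1 for each, and 0.3 after Benjamini-Hochberg adjustment over all pairs of the 4 LTRs. Without naive library 3 the THE1A to THE1B difference was -0.075. For THE1A to THE1D the groups overlapped (difference -0.097, exact permutation p = 0.3).

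**Figure D4:**
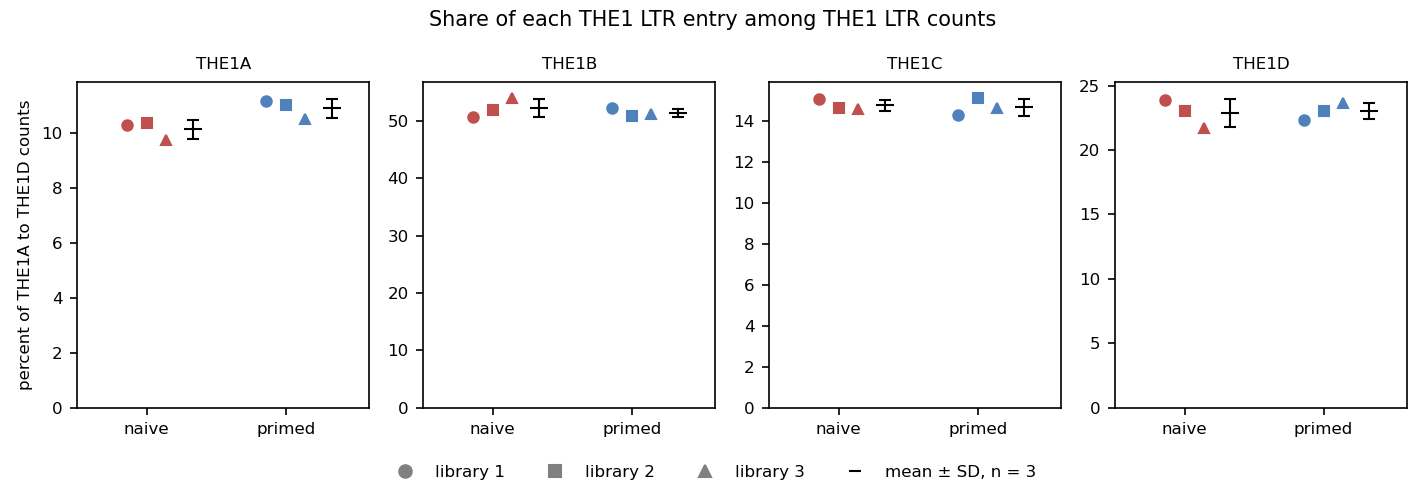
Share of each LTR entry among the summed counts of THE1A to THE1D (y axes, percent, each from 0) in naive and primed libraries. Symbols stand for libraries 1 to 3 and bars for mean ± SD (n = 3). THE1A lies between 9.73% and 10.4% in naive libraries and between 10.5% and 11.1% in primed ones, and the other 3 entries overlap.

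The LTR relatives of THE1 had positive log2 changes with TMM scaling, and the THE1 LTR values lay among theirs. The median log2 change was 0.45 for the 4 THE1 LTRs, against 0.37 for 7 MST LTRs, 0.31 for 30 MLT1 LTRs, 0.43 for 12 MLT2 LTRs (the LTRs of ERVL elements) and 0.21 for all named repeats tested. In the MST list 1 of 7 was called higher, which was MSTA (0.46 ± 0.13, SE; edgeR adjusted p = 0.0400), and in the MLT1 list 3 of 30 were. In the MLT2 list 4 of 12 were called higher, among them MLT2E (0.83 ± 0.21; edgeR adjusted p = 0.0302) and MLT2B1 (0.59 ± 0.15; 0.0302). In primed library 2 MLT2E had 22.4 TMM CPM, where 5 counts are 27.97. Without that library its log2 change was 0.82 (edgeR adjusted p = 0.0417). None of these 3 lists had an entry with a log2 change below 0. Among all 1265 named repeats tested, 131 (10.4%) were called higher and only 15 lower. Together with HERVL-int and HERVL18-int the calls in these lists were 10. Leaving out single libraries ended many of the 10 along with calls over the whole table. Without primed library 1, 0 of the 10 were called, with log2 changes between 0.39 and 0.73, and 0.432% of all entries tested. Without naive library 2 it was 1 of the 10 and 5.02% of all entries, and without naive library 3 it was 4 of the 10 and 9.02%. With library size alone 0 of the 10 were called and 3 were above 0, whereas 33.5% of all entries were called. With upper-quartile factors 3 of the 10 were called and 13.9% of all entries. Without simple repeats 0 of the 10 were called and 3.79% of all entries.

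A ratio taken within each library needs no scaling. THE1 LTRs had 1.27, 1.40 and 1.40 counts per MST LTR count in naive libraries 1 to 3, against 1.27, 1.31 and 1.35 in primed libraries 1 to 3. The groups overlapped, with a log2 difference of 0.05 (exact permutation p = 0.4), which was 0.024 to 0.094 without any 1 library. Against MLT1 LTRs the log2 difference was 0.14 (exact permutation p = 0.2), and against MLT2 LTRs 0.02 (exact permutation p = 0.8), again with overlap.

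The internal entry differed more from its relatives than the LTRs did. THE1D-int and THE1-int were both at -0.05 on the log2 scale. The 6 MaLR internal entries tested outside THE1 all had a log2 change above 0 with TMM scaling, between 0.15 and 1.09. So had all 10 internal entries of the HERVL and ERVL group, between 0.26 and 0.63. A change above 0 was usual with this scaling, as 84 of all 102 internal entries tested had one. The lowest of the 6, MLT1J-int, was at 0.15 ± 0.15 and THE1D-int at -0.05 ± 0.19 (SE), a gap within their errors. Of the 6 none passed, and of the 10 the called ones were HERVL-int (0.62 ± 0.16, SE; edgeR adjusted p = 0.0302) and HERVL18-int (0.63 ± 0.19; 0.0478). Without primed library 1 they gave 0.46 and 0.48 and did not pass (edgeR adjusted p = 0.199 and 0.313). Tested within libraries, the log2 ratio of THE1D-int to MST-int was -2.24, -2.16 and -2.34 in naive libraries 1 to 3, against -1.64, -1.0 and -1.86 in primed libraries 1 to 3. The groups did not overlap (difference -0.75, exact permutation p = 0.1). The -1.0 of primed library 2 is 5 counts over 10, and without that library the difference was -0.50. The log2 ratio of THE1D-int to the summed HERVL and ERVL internal counts also differed without overlap (difference -0.48, exact permutation p = 0.1), whereas that of the THE1 LTRs to the same sum did not (0.03, exact permutation p = 0.8).

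**Figure D5:**
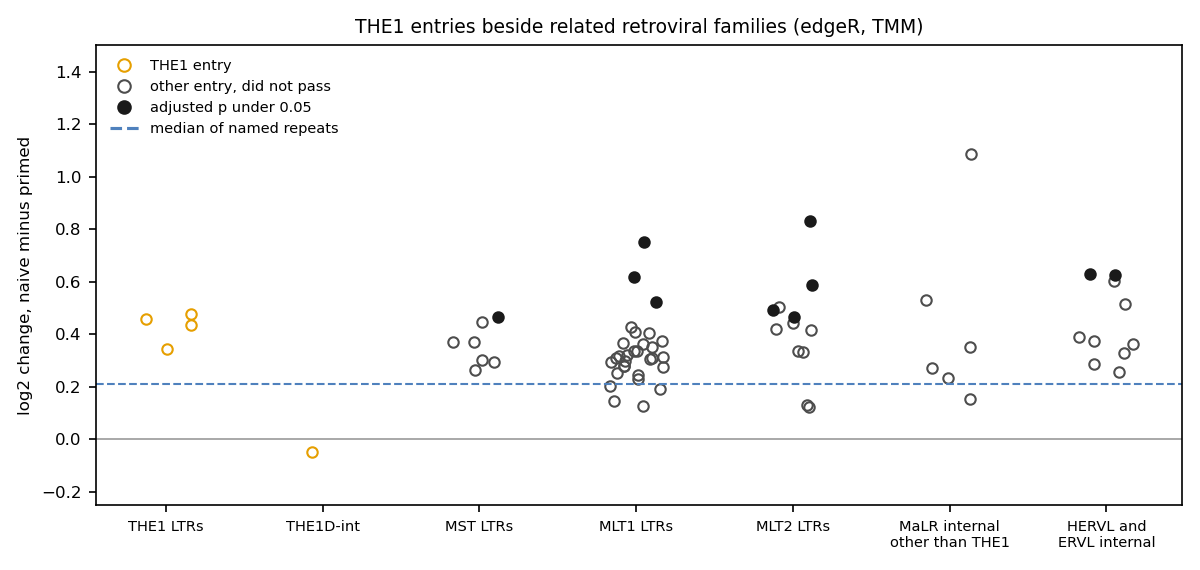
Log2 change, naive minus primed, with TMM scaling (y axis), of the THE1 LTRs, THE1D-int and entries of related lists (x axis). Each circle is 1 entry, filled where the edgeR adjusted p is under 0.05, and the dashed line marks the median of named repeats, 0.21. THE1 LTRs lie among their relatives, and THE1D-int, at -0.05, lies below all of them.

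The patterns most like that of the summed THE1 LTRs were sought among 565 named repeats with at least 100 TMM CPM, by the root mean square difference of centred log2 CPM over the 6 libraries. They were MLT1H (0.0324), MLT2B4 (0.0328) and LTR49 (0.0462), all retroviral LTRs, where the median over the 565 was 0.221. For THE1D-int the nearest were SVA_A (0.0831) and SVA_B (0.0949), composite retrotransposons of hominoids, and the entry Alu (0.107), against a median of 0.236. Neither group of neighbours held a called entry. The nearest match of THE1D-int was less close than that of the LTRs, and its level in primed library 2 rests on 5 counts.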

How the data were processed

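RNA from the chromatin fraction of H9 cells was sequenced with a directional kit, per the labels' protocols. Per the submitters' processing notes the tools were Trimmomatic 0.39, STAR 2.7.8a, featureCounts and Subread 2.14.2. The sources used here do not give the genome build, the repeat annotation or the strand setting. The deposited values are raw counts per repeat name, which the authors left unnormalised as far as the values show. Columns were matched to samples by title and grouped by the treatment label.

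Counts of the whole table were fitted with edgeR 4.0.16 in R 4.3.3 (TMM, filterByExpr, quasi-likelihood test). The SE is the size of the log2 change divided by the square root of F. Internal-to-LTR pairs, with 0.5 added to each count, were fitted with limma 3.58.1. Single ratios and shares were compared by exact permutation over libraries. Both fits were tested on simulated data. There edgeR called 57% of entries changed 2-fold and 97.9% of those changed 4-fold, and 5.7% of its calls were unchanged entries. The limma fit called 26.7% of pairs whose internal entry was lowered 2-fold in naive libraries, and 0.303% of unchanged pairs. The THE1 changes measured here were smaller than 2-fold, so entries and pairs that did not pass may still differ. DESeq2 1.42.0 was an alternative. Members and lists were chosen with earlier results of these data known. Named entries were the THE1 rows, the called relatives with the smallest adjusted p (up to 3 per list), the called pairs and the 3 nearest profiles. THE1-int, alternatives with it, THE1D-int over THE1D alone, and leaving libraries out of the ratios of relatives were chosen after seeing the data. Figures were drawn with matplotlib 3.10.9.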

Additional observations from a re-analysis of the deposited data

How the results depend on the processing

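The log2 internal-to-LTR difference of THE1 (main -0.51) was negative in all 10 alternatives on the log2 scale, and so was the linear ratio (-0.114 counts per 100 LTR counts). It was -0.58 to -0.47 without any 1 library, -0.58 with THE1-int added, and -0.51 with the replicate number as a block (exact paired p = 0.25, the smallest 3 pairs allow). The THE1D pair in the fit over 27 pairs ranged over its 10 alternatives from -0.66 to -0.46, with adjusted p between 0.102 and 0.353, and pairs called numbered 2 in the main fit, 4 with edgeR's diffSpliceDGE and 0 to 6 without any 1 library.

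THE1 entries called were 0 in the main fit, 3 with no filter on low counts, 3 with the replicate block and 0 to 4 without any 1 library. The cause was not tested. Over the whole table the same fits called 12.7%, 8.45% and 19.8% of entries, and 0.432% to 18.6% without any 1 library. Without simple repeats the fit called 48 of 1265 named repeats, against 146 of the same 1265 in the main fit, and THE1B gave 0.24 (edgeR adjusted p = 0.229). With library size alone THE1A (-0.35), THE1B (-0.22), THE1C (-0.24) and THE1D (-0.27) turned negative, and THE1D-int turned positive without naive library 1 (0.091; -0.093 at the lowest without any 1 library, -0.26 without simple repeats). The THE1 share of counts turned from -0.152 to 0.243 points with alpha satellite and ribosomal RNA left out of the total.

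Shares within THE1 turned for THE1B (-0.0218 to 1.59 points without any 1 library), THE1C (-0.0820 to 0.332) and THE1D (-0.605 to 0.487), and were negative throughout for THE1A (-0.938 to -0.555). Same-numbered libraries deviated together with r = 0.146, 0.0867 and 0.0659 over tested entries, and each library correlated best with its own number. The labels give no shared source, so the numbers were not taken as pairs. Without any 1 library, log2 differences that turned were those of MLT1 internal over LTR counts (-0.0035 to 0.082), THE1 LTRs over MLT2 LTRs (-0.042 to 0.062) and THE1 LTRs over HERVL and ERVL internal counts (-0.034 to 0.11). The mean of 4 letter ratios was not run, because 1 letter has an internal entry. Primed library 2 limits the depth: 3 counts in it are 25.3 CPM (by library total), and THE1D-int had 5 counts there.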

Other observations

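THE1D-int had 62.1, 58.7 and 63.3 counts per 100 counts of THE1-int in naive libraries 1 to 3, against 70.5, 45.5 and 58.9 in primed libraries 1 to 3, with overlapping groups (exact permutation p = 0.8). The difference was 3.09, and -3.32 without primed library 2. MLT1H-int, the internal region of an old MaLR group, had the highest log2 change of the MaLR internal entries, 1.09 ± 0.34 (SE), and did not pass (edgeR adjusted p = 0.0572). Its counts per 100 MLT1H counts were 1.71, 2.52 and 1.70 in naive libraries 1 to 3, against 0.903, 1.47 and 1.49 in primed libraries 1 to 3. All naive values were above all primed ones, the opposite direction to THE1D (limma adjusted p = 0.325 over 27 pairs). In primed library 2 MLT1H-int had 11.2 TMM CPM, below the 27.97 of THE1D-int, which is 5 counts. Its 1.47 there rests on fewer counts still. MLT1H-int was picked after its values had been seen.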
